A study of Homo sapiens with 8 samples.

Results

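The genes of the FOS, JUN and BATF families, which encode subunits of the transcription factor AP-1, were examined in cultures of the human melanoma lines C8161 and A2058. They were chosen by name, as the rows of the authors' table whose Entrez identifier belongs to FOS, FOSB, FOSL1, FOSL2, JUN, JUNB, JUND, BATF, BATF2 or BATF3. All 10 genes were listed, among 18478 genes in all. Each line was represented by cells transduced with a retrovirus carrying ATF3 and by its neomycin control, all kept in DMEM with 10% fetal bovine serum. C8161 cells with ATF3 and C8161 controls had 3 RNA-seq libraries each, A2058 cells with ATF3 and A2058 controls 1 library each, 8 libraries in total. The retroviral promoter, the number of clones and whether the C8161 libraries came from separate cultures are not stated in the labels.

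AP-1 is a dimer of basic leucine zipper (bZIP) proteins. JUN proteins pair with one another or with FOS proteins, whereas FOS proteins need a partner from another family. BATF proteins also pair with JUN proteins and lack the activation domains of FOS. FOS, FOSB, JUN and JUNB are textbook immediate early genes, induced within minutes by growth factors through ERK and JNK signalling. FOSL1, which encodes FRA1, is known to accumulate where ERK signalling is sustained, and is a known feature of dedifferentiated, invasive melanoma cells. ATF3 is itself a bZIP protein and can pair with JUN proteins. The study compared cells with introduced ATF3 with their controls, in each line.

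The values are RPKM, read numbers divided by transcript length and by the library total, so levels of different genes can be set beside each other within a column. The authors' table holds 4 columns, 1 for each A2058 library and 1 combined value for each C8161 arm. No spread between replicates can be computed from them, no test was run, and each difference describes these columns alone. Differences are given on the scale log2(RPKM + 1), which understates the change of low genes, and plain folds of RPKM are given where stated. The columns sum to 470633 to 481302 RPKM. In A2058 the spacing of low values placed the depth at about 18400000 reads with ATF3 and 18600000 in the control. In C8161 with ATF3 the spacing signal, 0.315, did not exceed the highest with shuffled transcript lengths, 0.332. In the C8161 control it did, at 0.323 against 0.305, but at an edge of the depths searched, so it was not used. The depth of the C8161 columns is therefore unknown. The introduced gene was higher in both lines, at 62.57 RPKM in C8161 with ATF3 against 4.76 in the C8161 control, and at 4.71 RPKM in A2058 with ATF3 against 1.22 in the A2058 control. Melanocyte lineage markers were at 1 RPKM or more for 10 of 10 genes in both A2058 columns, but for 3 of 10 in C8161 with ATF3 and 2 of 10 in the C8161 control. TYR was listed at 0 in both C8161 columns, and DCT, S100B and SOX10 were at 0.06 RPKM or less there. PMEL, MLANA and TYRP1 were at 0.33 RPKM or less. S100A1 was at 3.42 RPKM in C8161 with ATF3 and 3.60 in its control, and MC1R at 1.61 and 1.77. MITF was at 1.02 RPKM in C8161 with ATF3 and 0.95 in its control. Most of these markers were thus close to 0 in C8161, but not all. The 6 leukocyte markers found in the table summed to 1.41 RPKM in C8161 with ATF3 and 1.64 in its control, and to 4.40 RPKM in A2058 with ATF3 and 4.93 in its control. The 7 fibroblast markers summed to 0.84 RPKM in C8161 with ATF3 and 0.80 in its control, and to 13.89 RPKM in A2058 with ATF3 and 12.59 in its control.

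The members lie on 5 chromosomes (GRCh38.p14, RefSeq). FOS spans chr14:75278828-75282230 and BATF chr14:75522469-75546992, 240 kb away. JUN spans chr1:58780791-58784047 and BATF3 chr1:212686417-212699840, 66 kb from ATF3. FOSL1 spans chr11:65892049-65900545 and BATF2 chr11:64987945-64996971, and FOSL2 spans chr2:28392858-28417317. JUNB (chr19:12791486-12793315), JUND (chr19:18279694-18281622) and FOSB (chr19:45467996-45475179) share a chromosome. The longest annotated transcripts of JUN, JUNB and JUND have 1 exon, and those of the FOS genes 4. GC content of the longest transcript ran from 45.6% in BATF3 to 69.7% in JUND, with JUNB at 64.9%, BATF at 60.2%, FOSL1 at 60.0%, FOSB at 57.7%, BATF2 at 57.6%, JUN at 56.7%, FOSL2 at 53.3% and FOS at 52.6%. No stretch of 50 bases of any member occurred in transcripts of another gene, except 3.64% of those of FOSL1, which match the pseudogene FOSL1P1. On the map FOSL2 overlaps FOSL2-AS1, JUNB overlaps HOOK2 and BATF3 overlaps LOC124904694, and as the strand setting is not given, reads of such pairs cannot be told apart. HOOK2 was at 1.19 RPKM in C8161 with ATF3 and 1.51 in its control, and at 8.87 RPKM in A2058 with ATF3 and 8.96 in its control, in each column below JUNB.

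The promoter sequences are shown because AP-1 and ATF proteins bind a closely related set of letters, and several subunit genes carry such letters just upstream of their start. RefSeq promoter windows, from 250 bases before to 50 bases after the start, were available for 8 of the 10 members. The last 100 bases before the start of 5 of them follow, 5′ to 3′ on the gene's strand, for JUN (chr1:58784048-58784147, minus strand), FOS (chr14:75278728-75278827, plus), FOSB (chr19:45467896-45467995, plus), FOSL2 (chr2:28392758-28392857, plus) and JUND (chr19:18281623-18281722, minus). Capitals mark the motif matches named in the next paragraph.
JUN: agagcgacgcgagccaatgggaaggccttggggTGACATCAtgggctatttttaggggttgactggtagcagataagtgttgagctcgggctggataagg
FOS: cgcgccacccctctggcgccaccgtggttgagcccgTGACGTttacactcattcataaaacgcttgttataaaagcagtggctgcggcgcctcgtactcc
FOSB: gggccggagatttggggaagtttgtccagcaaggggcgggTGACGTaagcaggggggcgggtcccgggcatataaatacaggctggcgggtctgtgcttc
FOSL2: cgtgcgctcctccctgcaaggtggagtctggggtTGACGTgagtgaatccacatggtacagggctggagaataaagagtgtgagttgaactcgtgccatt
JUND: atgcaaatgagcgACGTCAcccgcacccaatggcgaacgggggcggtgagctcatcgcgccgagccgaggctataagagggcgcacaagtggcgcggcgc

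Both strands of all 35116 RefSeq windows were searched for 4 motifs, which were chosen after the member windows had been read. The core TGACGT of the ATF/CREB site occurred in 4 of 8 member windows (FOS, FOSB, FOSL2, JUND), against 7.98% of all windows. The full site TGACGTCA, which contains that core, occurred in JUND at -200 to -193 from the start, against 1.85% of all windows. JUND held the core a further time on the other strand, as ACGTCA at -87 to -82. TGACATCA, the form long described in the JUN promoter, occurred in JUN at -67 to -60 and in BATF2 at -132 to -125, against 2.61% of all windows. A window of ATF3 itself held the same letters at -123 to -116. The AP-1 site TGACTCA occurred in FOSL2, at positions 5 to 11 after the start, against 4.95% of all windows. The upstream matches in JUN, FOS, FOSB and FOSL2 lay between -67 and -55. The JUNB and BATF windows held no match to these letters. These are matches of letters and not measured binding.

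The order of levels differed between the lines. In C8161, FOSL1 led in both arms, with JUN, FOSL2, JUNB, JUND, BATF3 and BATF2 following in that order. FOSB and FOS stood close together below them, and BATF was listed at 0. In A2058, JUNB led in both arms, ahead of FOSL1, JUND, FOSL2, FOS, BATF3, JUN, BATF2, BATF and FOSB. Without a replicate spread it cannot be said which neighbours in these orders differ. As bulk values, they also cannot tell fewer expressing cells from less RNA per cell.

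**Figure D1:**
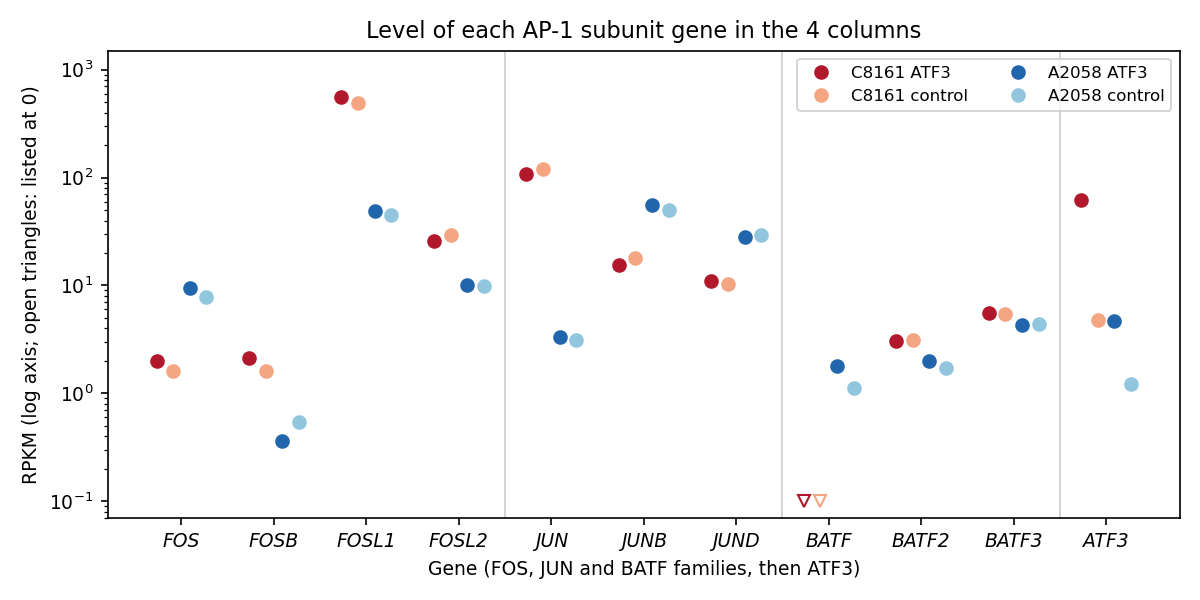
RPKM (log axis) of the 10 AP-1 subunit genes and of ATF3 in C8161 with ATF3, C8161 control, A2058 with ATF3 and A2058 control; each point is 1 column, and open triangles mark BATF, listed at 0 in C8161. The distance between lines exceeds that between arms for FOSL1, JUN, JUNB, JUND, FOSL2 and FOS, whereas ATF3 is high in C8161 with ATF3 alone.

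Among the FOS family, FOSL1 was by far the most abundant in C8161. It was at 560.46 RPKM in C8161 with ATF3 and 489.11 in the C8161 control, against 48.57 RPKM in A2058 with ATF3 and 45.41 in the A2058 control. This placed FOSL1 at rank 133 and rank 151 of all genes in these C8161 columns, and at rank 1822 and rank 1941 in those of A2058. FOSL1 was 11.5-fold higher in C8161 than in A2058 among ATF3 cells and 10.8-fold higher among controls. FOSL2, which encodes FRA2, was at 26.05 RPKM in C8161 with ATF3 and 29.05 in its control, against 10.04 RPKM in A2058 with ATF3 and 9.81 in its control. FOS, the prototype of the family, was lower in C8161, at 1.99 RPKM with ATF3 and 1.62 in its control, against 9.40 RPKM in A2058 with ATF3 and 7.83 in its control. FOSB was low everywhere, at 2.13 RPKM in C8161 with ATF3 and 1.61 in its control, against 0.36 RPKM in A2058 with ATF3 and 0.54 in its control. For each of these 4 genes the values of the 2 arms of a line lay on the same side of both values of the other line.

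The JUN family differed in its leading member. JUN was at 108.79 RPKM in C8161 with ATF3 and 120.69 in the C8161 control, against 3.34 RPKM in A2058 with ATF3 and 3.10 in the A2058 control. JUN was therefore 32.6-fold higher in C8161 among ATF3 cells and 38.9-fold higher among controls, the widest gap between the lines of any member with a value above 0 in both. JUNB, which can restrain JUN on some target genes, was lower in C8161, at 15.54 RPKM with ATF3 and 18.03 in its control, against 55.27 RPKM in A2058 with ATF3 and 49.97 in its control. JUND, the member that is usually present without stimulation, was also lower in C8161, at 11.10 RPKM with ATF3 and 10.32 in its control, against 28.24 RPKM in A2058 with ATF3 and 29.45 in its control.

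The BATF family, best known for its roles in lymphocytes and dendritic cells, was low in both lines. BATF was listed at 0 in both C8161 columns, and was at 1.78 RPKM in A2058 with ATF3 and 1.12 in the A2058 control. BATF2 was at 3.03 RPKM in C8161 with ATF3 and 3.11 in its control, against 1.98 RPKM in A2058 with ATF3 and 1.72 in its control. BATF3 was at 5.61 RPKM in C8161 with ATF3 and 5.43 in its control, against 4.27 RPKM in A2058 with ATF3 and 4.36 in its control. BATF3 and ATF3 are neighbours on chromosome 1, and the BATF3 columns of a line lay within 1.03-fold of each other while ATF3 differed 13.1-fold in C8161 and 3.86-fold in A2058. IRF4, a lymphoid partner of BATF that is also known from melanocytes, was listed at 0 in C8161 with ATF3 and at 0.01 RPKM in its control, against 10.60 RPKM in A2058 with ATF3 and 11.39 in its control. IRF8 was at 0.01 RPKM in C8161 with ATF3 and listed at 0 in the other 3 columns.

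**Figure D2:**
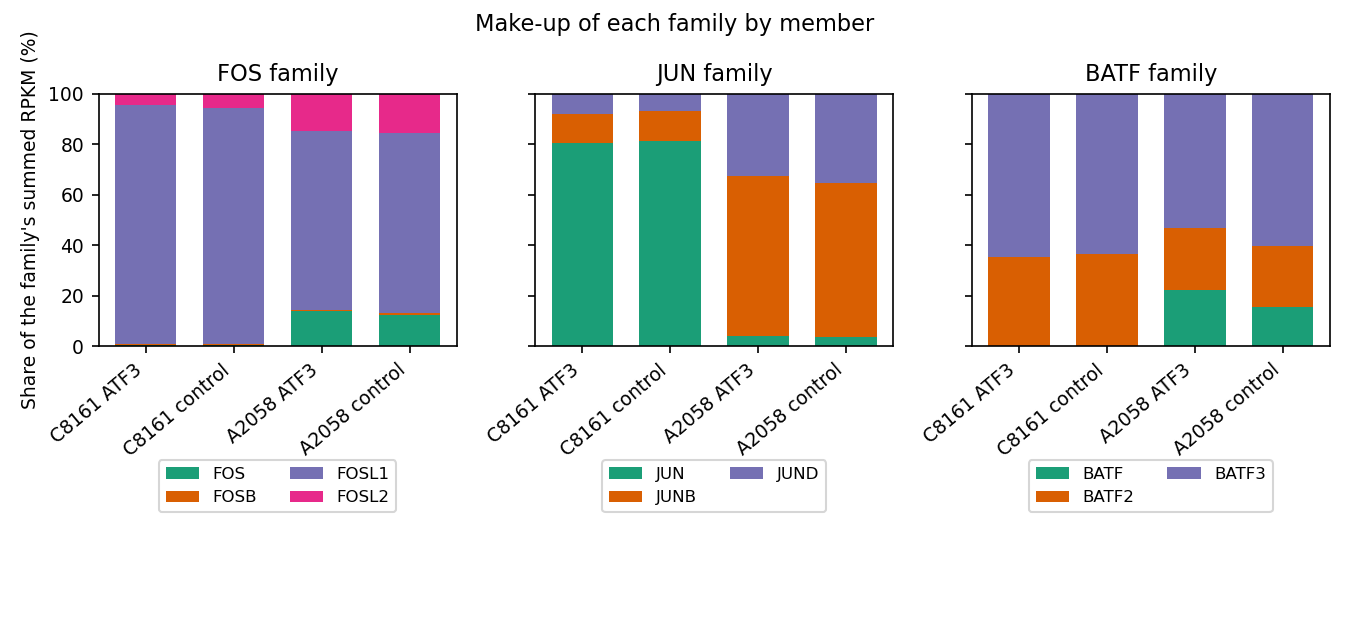
Share (%) of the summed RPKM of the FOS, JUN and BATF families taken by each member, in C8161 with ATF3, C8161 control, A2058 with ATF3 and A2058 control; each stacked bar is 1 column and starts at 0. JUN takes 80.3% and 81.0% of its family in the C8161 columns and 3.85% and 3.76% in the A2058 columns, where JUNB takes 63.6% and 60.6%.

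Summed over its members, the FOS family was at 590.63 RPKM in C8161 with ATF3 and 521.39 in the C8161 control, against 68.37 RPKM in A2058 with ATF3 and 63.59 in the A2058 control. FOSL1 supplied 94.9% of it in C8161 with ATF3 and 93.8% in the C8161 control, and 71.0% in A2058 with ATF3 and 71.4% in the A2058 control. FOS supplied 0.337% and 0.311% of it in these C8161 columns, and 13.7% and 12.3% in those of A2058. The JUN family sum differed less between the lines, at 135.43 RPKM in C8161 with ATF3 and 149.04 in its control, against 86.85 RPKM in A2058 with ATF3 and 82.52 in its control. The FOS sum was 4.36 times the JUN sum in C8161 with ATF3 and also exceeded it in the C8161 control, but was 0.787 times in A2058 with ATF3 and 0.771 times in the A2058 control. The BATF family sum lay between 7.20 and 8.64 RPKM in the 4 columns. These are sums of transcripts, and protein levels or dimers were not measured.

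The comparison of the lines was made separately in ATF3 cells and in controls, which share no column. A member was counted as past the fold when its difference on the log2(RPKM + 1) scale reached 2-fold. Among ATF3 cells 8 of 10 members passed it, 4 higher in C8161 (JUN, FOSL1, FOSL2, FOSB) and 4 lower (FOS, JUNB, BATF, JUND), where 31.3% of 12381 genes did so, 9.92% higher and 21.4% lower. Among controls 7 of 10 passed it, the same genes without FOSB, where 30.0% of 12372 genes did so, 9.36% higher and 20.7% lower. The median difference of the members was 0.38 among ATF3 cells and 0.43 among controls, beside -0.18 and -0.19 (-0.182 and -0.185) over all genes. Quantile normalization of the 4 columns moved the median over all genes to 0.098 among ATF3 cells and 0.079 among controls. It moved the median of the members to 0.774 among ATF3 cells, with 10 compared, and to 1.035 among controls, with 9 compared. BATF, which was lower in C8161, was not compared there, so part of that move comes from leaving it out. Quantile normalization also moved the split of all genes past the fold to 1772 higher and 1930 lower among ATF3 cells, from 1228 and 2649. Among controls the split moved to 1680 and 1865, from 1158 and 2555.

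**Figure D3:**
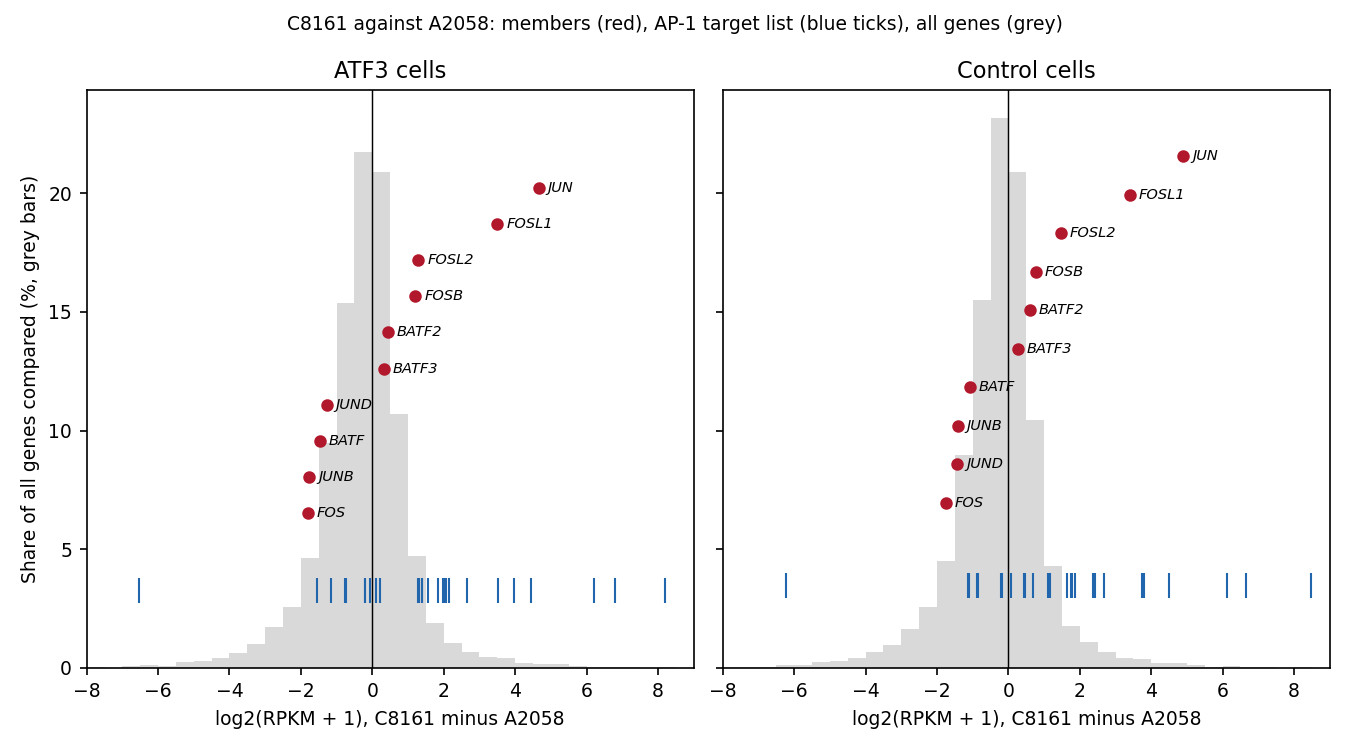
Difference C8161 minus A2058 on the log2(RPKM + 1) scale in ATF3 cells (left) and control cells (right); red points are the 10 members, their height only separates the names, blue ticks are the genes of the AP-1 target list, and grey bars give the share of all genes compared. JUN and FOSL1 lie far to the right, at 4.66 for JUN among ATF3 cells, and at 4.89 for JUN and 3.40 for FOSL1 among controls, while FOS, JUNB, BATF and JUND lie left of 0.

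JUN had the largest difference of the members, 4.66 among ATF3 cells and 4.89 among controls. It lay above its level band, the central 95% of the differences of the 500 genes nearest in mean level, whose upper edge was 2.96 among ATF3 cells and 2.69 among controls. FOSL1, with its 3.40 among controls, lay inside its band in both arms, with an upper edge of 4.33 among ATF3 cells and 4.42 among controls. Each of the other 8 members lay inside its band in both arms. Outside such a band lay 4.72% of all genes among ATF3 cells and 4.74% among controls. The differences between the lines also ran with GC content, with a Spearman's rho across genes of -0.33 among ATF3 cells and -0.27 among controls. With the trends with GC content and transcript length removed, JUN was at 4.89 and 5.07 and FOSL1 at 3.94 and 3.71. The lower values of JUNB shrank, to -1.05 from -1.77 among ATF3 cells and to -0.86 from -1.42 among controls. Those of JUND, the member of highest GC content, shrank to -0.26 from -1.27 among ATF3 cells and to -0.56 from -1.43 among controls. FOS was at -1.70 in both, beside -1.80 among ATF3 cells and -1.75 among controls as deposited. BATF was at -1.04 among ATF3 cells and -0.78 among controls. With trends removed 7 members passed 2-fold among ATF3 cells and 4 among controls (JUN, FOSL1, FOSL2, FOS). Of 12254 genes among ATF3 cells, 1164 were then higher and 2272 lower past 2-fold. Of 12238 genes among controls, 1157 were higher and 2276 lower.

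Genes known as AP-1 targets in tumour cells were far apart between the lines, in both directions. Of 27 compared, 17 were higher and 3 lower in C8161 by at least 2-fold among ATF3 cells, and 16 higher and 3 lower among controls. Over all genes, 9.92% were higher and 21.4% lower among ATF3 cells, and 9.36% higher and 20.7% lower among controls. The list median was 1.39 among ATF3 cells and 1.64 among controls, beside -0.182 and -0.185 over all genes. The genes given in this paragraph were chosen after their values were seen. PLAU, the urokinase plasminogen activator, was at 434.09 RPKM in C8161 with ATF3 and 414.15 in its control, against 0.47 RPKM in A2058 with ATF3 and 0.16 in its control. AXL, a receptor tyrosine kinase of dedifferentiated melanoma, was at 293.63 RPKM in C8161 with ATF3 and 279.65 in its control, against 12.63 RPKM in A2058 with ATF3 and 11.41 in its control. The collagenase gene MMP1, a classical AP-1 target, ran the other way, at 1.03 RPKM in C8161 with ATF3 and 1.29 in its control, against 186.43 RPKM in A2058 with ATF3 and 171.36 in its control. The list members are regulated by many factors, and the part of AP-1 in these levels was not tested.

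Of 15 genes compared from a list of upstream kinases and a small GTPase, 1 was higher and 1 lower in C8161 by at least 2-fold in each arm, where 31.3% of all genes passed that size in either direction among ATF3 cells and 30.0% among controls, and the list median was 0.03 among ATF3 cells and 0.06 among controls. Among 10 transcription factors that act on FOS or JUN transcription, whether to raise or to restrain it, 1 was higher and 3 lower among ATF3 cells. Among controls 1 was higher and 2 lower. ELK3, a ternary complex factor, stood above its level band, at 48.05 RPKM in C8161 with ATF3 and 44.78 in its control, against 13.05 RPKM in A2058 with ATF3 and 13.91 in its control. SRF, the serum response factor, was at 19.98 RPKM in C8161 with ATF3 and 20.81 in its control, and at 18.57 RPKM in both A2058 columns. Immediate early genes that share SRF control with FOS differed in both directions, with 2 of 7 higher and 3 of 7 lower in C8161 by at least 2-fold in each arm. CCN1, a matricellular protein also known as CYR61, was at 613.01 RPKM in C8161 with ATF3 and 579.03 in its control, against 6.26 RPKM in A2058 with ATF3 and 6.06 in its control. The nuclear receptor gene NR4A1 was at 4.02 RPKM in C8161 with ATF3 and 3.96 in its control, against 31.22 RPKM in A2058 with ATF3, with differences of -2.68 among ATF3 cells and -2.60 among controls. None of the 5 genes of AP-1 turnover compared passed 2-fold in either arm.

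ATF3 cells and controls of C8161 lay close together in every member. Counted at 1.2-fold on the log2(RPKM + 1) scale, a difference of 0.26, 0 of the 9 members compared passed, where 4.91% of 10941 genes did so, 2.19% higher and 2.71% lower. The values of 5 members were above 0 and those of 4 below, with a median of 0.04, beside 0.007 over all genes. FOSB, at 0.262, was just under the size, which is log2 of 1.2 before rounding. It had 2.13 RPKM in ATF3 cells against 1.61 in controls, 1.32-fold in plain RPKM. FOSB was the single member outside its level band, whose upper edge was 0.256. In this comparison 5.53% of all genes lay outside their bands. FOS, at 1.99 RPKM in ATF3 cells against 1.62 in controls, was 1.23-fold higher in plain RPKM, a difference of 0.19. FOSL1, at 560.46 RPKM in ATF3 cells against 489.11 in controls, was 1.15-fold higher, a difference of 0.20. JUND was 1.08-fold higher. The lower members were JUNB at 0.862-fold, FOSL2 at 0.897-fold, JUN at 0.901-fold and BATF2 at 0.974-fold, with differences of -0.20, -0.15, -0.15 and -0.03. The FOS family sum was 1.13-fold higher in C8161 with ATF3 than in its control, and the JUN family sum was 0.909-fold.

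**Figure D4:**
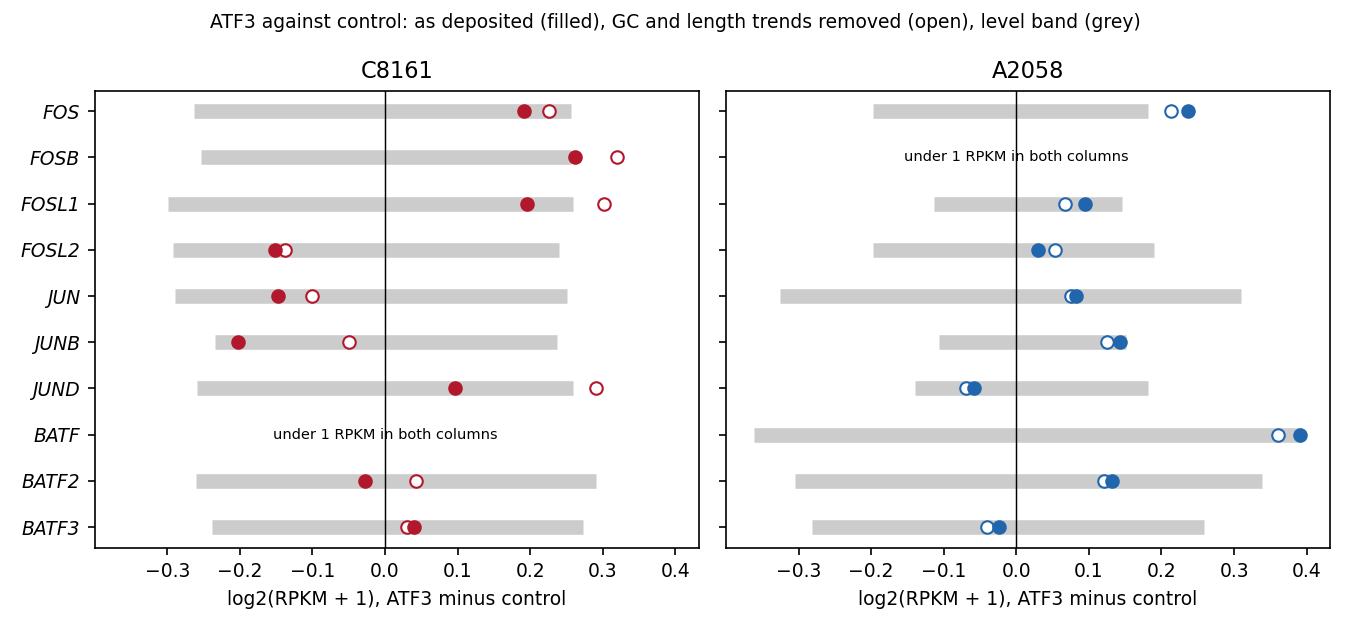
Difference of ATF3 cells minus controls on the log2(RPKM + 1) scale in C8161 (left) and A2058 (right) for the 10 members; filled points are the values as deposited, open points those with the GC and length trends removed, and grey bars the level band of each gene. Only FOSB in C8161 and FOS in A2058 lie above their bands as deposited, and with the trends removed FOSL1, FOSB and JUND do in C8161. All bands shown are those of the differences as deposited.

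The C8161 differences ran with GC content, with a Spearman's rho of -0.42 across 10860 genes, which are not independent replicates, and with transcript length, with a rho of 0.20. With both trends removed, FOSL1 moved to 0.30 from 0.20, JUND to 0.29 from 0.10 and FOSB to 0.32 from 0.26. All were then past the 1.2-fold size and above their bands. Those bands were drawn from the differences as deposited, which still hold the trends, and no share of all genes outside them is given for this step. JUNB moved to -0.05 from -0.20, JUN to -0.10 from -0.15 and FOSL2 to -0.14 from -0.15. The split of all genes past 1.2-fold moved with it, to 291 higher and 92 lower, from 240 and 297. The count of members past the fold in C8161 thus depended on this step, and the cause of the trend was not tested.

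**Figure D5:**
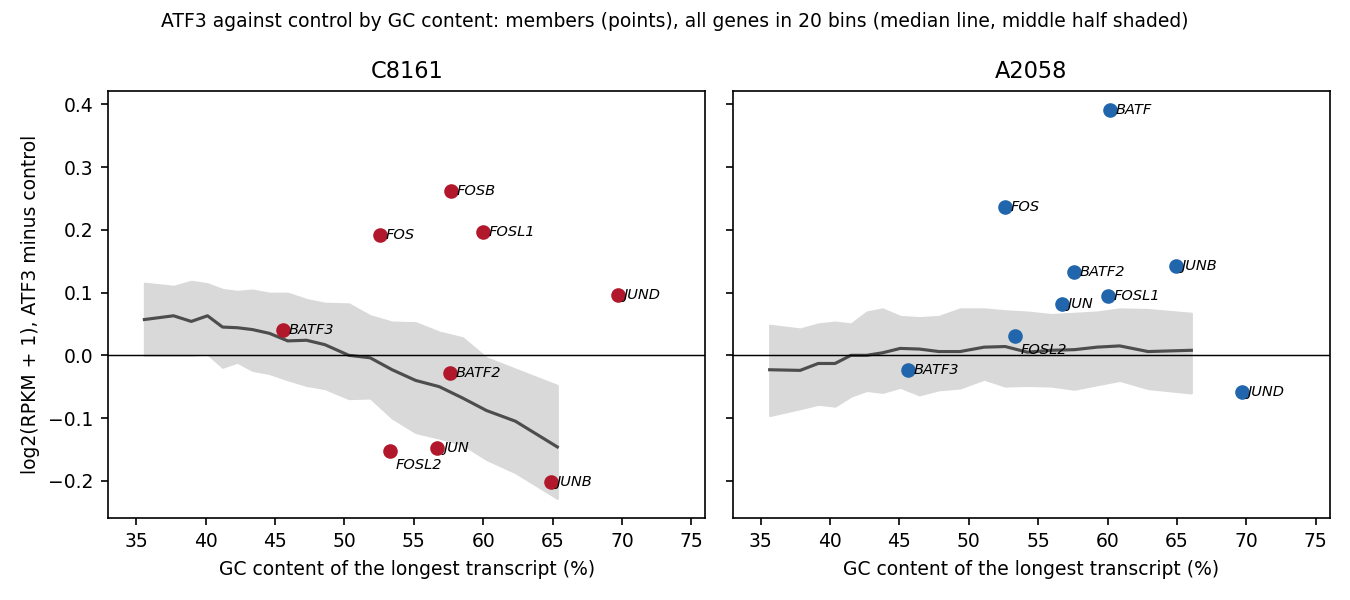
Difference of ATF3 cells minus controls on the log2(RPKM + 1) scale against GC content of the longest transcript (%) in C8161 (left) and A2058 (right); points are members, the line is the median and the shading the middle of the distribution, from the lower to the upper quartile, of all genes in 20 bins. The C8161 median falls with GC content, so that JUNB lies on the trend while FOSB, FOSL1 and JUND lie above it; the A2058 median is nearly flat.

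In A2058, 1 of 9 members compared passed 1.2-fold, where 3.53% of 11883 genes did so, 2.02% higher and 1.51% lower. It was BATF, at 1.78 RPKM in ATF3 cells against 1.12 in controls, 1.59-fold in plain RPKM, a difference of 0.39 that lay just inside its level band (upper edge 0.394). At the estimated depth these values stand for about 32 reads against about 20, and the ratio has a 95% interval of 0.895 to 2.98 (exact, from the binomial split of the reads), so a difference was not detectable at this depth. Such intervals rest on approximate read numbers and cover counting error only. FOS was at 9.40 RPKM in ATF3 cells against 7.83 in controls, 1.2-fold in plain RPKM, with about 373 reads against 313 and an interval of 1.03 to 1.40. Its difference of 0.24 was the single one above its level band (upper edge 0.181), where 5.29% of all genes lay outside theirs. JUNB was at 55.27 RPKM in ATF3 cells against 49.97 in controls, 1.11-fold, with an interval of 1.03 to 1.18 and a difference of 0.14, inside its band. FOSL1 was 1.07-fold, with an interval of 0.994 to 1.15, and JUN 1.08-fold, with an interval of 0.886 to 1.31. FOSL2 at 1.02-fold, JUND at 0.959-fold, BATF2 at 1.15-fold and BATF3 at 0.979-fold all had intervals that contain 1. FOSB was under 1 RPKM in both columns and was not compared. Its 0.36 RPKM in ATF3 cells against 0.54 in controls stand for about 25 reads against 38, with an interval of 0.384 to 1.13. The median over the 9 members was 0.095, beside 0.004 over all genes, and GC and length trends left every member within 0.03 of its value.

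Side by side, 8 members could be compared in both lines, and 2 of them, FOS and FOSL1, were higher with ATF3 in each. FOS differed by 0.19 in C8161 and 0.24 in A2058, and FOSL1 by 0.20 in C8161 and 0.10 in A2058 (0.095). The other 6 had opposite signs in the lines, among them JUNB at -0.20 in C8161 and 0.14 in A2058, and JUN at -0.15 in C8161 and 0.08 in A2058. Of all genes compared in both lines, 51.5% had opposite signs. With trends removed, JUNB shrank to -0.05 in C8161 and BATF2 turned to 0.04 there from -0.03. With 1 column per arm, the difference between the lines was not tested.

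Of 15 bZIP partners compared in C8161, ATF3 itself alone passed 1.2-fold, where 4.91% of all genes did so in either direction. Counting ATF3, the introduced gene, 13 of 15 were above 0, where 52.0% of all genes were. The median was 0.12, beside 0.007 over all genes. ATF5 was at 23.67 RPKM in ATF3 cells against 19.63 in controls, and DDIT3, the stress factor CHOP, at 53.30 RPKM against 45.58, both above their bands. The CEBPB gene was at 26.90 RPKM against 31.88, inside its band. With the GC and length trends removed, CEBPB moved to -0.073 from -0.237, ATF5 to 0.358 from 0.258 and DDIT3 to 0.255 from 0.221. In A2058, ATF3 alone of 16 passed, where 3.53% of all genes did so in either direction. Counting ATF3, 8 of 16 were above 0, where 51.3% of all genes were, and the median was -0.01, beside 0.004 over all genes. JDP2, a repressor that pairs with JUN, was at 3.91 RPKM in A2058 with ATF3 against 4.79 in its control. In C8161 with ATF3, the ATF3 level of 62.57 RPKM lay between those of JUN and FOSL2. In the other 3 columns it lay below JUNB, JUND and FOSL2.

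Of the AP-1 target list in C8161, 2 of 25 were higher and 1 was lower past 1.2-fold with ATF3, where 2.19% of all genes were higher and 2.71% lower, with a median of 0.02, beside 0.007 over all genes. The cytokine gene IL6 was at 3.82 RPKM in ATF3 cells against 2.66 in controls, and HMGA1, a chromatin protein, at 1820.76 RPKM against 1516.90, both above their bands. LIF was at 18.47 RPKM in ATF3 cells against 22.53 in controls and TIMP1 at 117.34 RPKM against 139.12. With the GC and length trends removed, LIF moved to -0.223 from -0.273, short of the 1.2-fold size, and TIMP1 to -0.145 from -0.244. IL6 was then at 0.393 and HMGA1 at 0.379, from 0.397 and 0.263. In A2058, 3 of 23 were higher and 0 lower, where 2.02% of all genes were higher and 1.51% lower, with a median of 0.07, beside 0.004 over all genes. PLAUR, the urokinase receptor, was at 41.57 RPKM in A2058 with ATF3 against 33.41 in its control, above its band, but at 167.61 RPKM in C8161 with ATF3 against 182.96 in its control. CXCL8 was at 3.56 RPKM in A2058 with ATF3 against 2.73 in its control. IL6 in A2058 was at 0.94 RPKM with ATF3 against 1.28 in the control.

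Among the upstream kinases and the small GTPase, none of 15 passed 1.2-fold in either line. RPS6KA1 was at 11.16 RPKM in C8161 with ATF3 against 12.67 in its control, and at 20.74 RPKM in A2058 with ATF3 against 22.83 in its control. In C8161, MAPK3 (ERK1) differed by -0.14 and MAP2K2 (MEK2) by -0.13, both inside their bands. With the GC and length trends removed, MAPK3 was at -0.027 and MAP2K2 at -0.030. None of the 10 upstream transcription factors passed in either line; MEF2D had the largest C8161 difference, 0.18, at 6.84 RPKM in ATF3 cells against 5.91 in controls, and MRTFB the largest in A2058, -0.14. None of the immediate early genes passed, with CCN2 at 158.50 RPKM in C8161 with ATF3 against 152.77 in its control. Of 5 turnover genes, FBXW7, the substrate receptor of the ubiquitin ligase that targets JUN, was lower past 1.2-fold in A2058, at 3.26 RPKM with ATF3 against 4.12 in the control, inside its level band, and was at 3.95 RPKM in C8161 with ATF3 against 3.98 in its control. COP1, also a ubiquitin ligase for JUN, was at 17.07 RPKM in A2058 with ATF3 against 14.99 in its control.

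Genes with the pattern most like each member over the 4 columns were found as those with the smallest Euclidean distance between centred log2(RPKM + 1) values, among 6472 genes with a mean of at least 10 RPKM. The 4 columns come from 2 lines, so a pattern here is mostly the gap between the lines. FOSL1 was closest to ALCAM (distance 0.115), SSR3 (0.133) and ARMCX1 (0.159). ALCAM, a cell adhesion molecule, was at 108.28 RPKM in C8161 with ATF3 and 105.21 in its control, against 8.90 RPKM in A2058 with ATF3 and 8.56 in its control. JUN was closest to TIE1 (0.073), TWIST2 (0.084) and TBC1D2 (0.103). TIE1, a receptor known from endothelial cells, was at 62.77 RPKM in C8161 with ATF3 and 67.20 in its control, against 1.45 RPKM in both A2058 columns. FOSL2 was closest to GLTP (0.039), KCNAB2 (0.044) and PLGRKT (0.050). JUNB was closest to H2BC12 (0.040), MRPS26 (0.073) and ECH1 (0.080), and JUND to NDUFB10 (0.021), ARRB2 (0.036) and ERF (0.039).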

How the data were processed

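RNA-seq of 8 libraries was summarised in 1 table. The authors deposited RPKM values, per the file headers, with 2 decimals, for 18478 Entrez genes. Bowtie2, RSEM and the build hg38 are listed, with no role or version, per the submitters' processing notes. Annotation, strand setting and filters are not stated. Per the file headers, each C8161 column covers its whole arm, and whether it is a mean or comes from pooled reads is not stated, so it is given as the authors' combined value without SD or n. RPKM divides by length and library total, so GC content and a few abundant genes can still move values. All 4 value columns were used.

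Symbols (18156 genes) and coordinates came from RefSeq GRCh38.p14, and GC content and length (17847 genes) from the longest GENCODE 29 transcript. Differences are log2(RPKM + 1), ATF3 minus control or C8161 minus A2058, over genes at 1 RPKM or more in at least 1 of the 2 columns. Trends with GC content and length were removed by lowess (span 0.3, statsmodels 0.14.6). Level bands and trend removal were tested on simulated data, with changes larger than 1.2-fold and with bands drawn after trend removal. The simulation therefore covers neither the 1.2-fold size nor the bands used here, which were drawn from the differences as deposited. Depth in A2058 was estimated from whole-read steps in transcripts of 400 to 1500 bases, and intervals of ratios of reads cover counting error only.

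No test was run, as each arm has 1 column. The members and gene lists were chosen with earlier results of these data known. By the naming rule, genes named were all members, ATF3, from each list up to 4 genes with the largest absolute difference in C8161 and up to 2 in A2058 at a mean of at least 2 RPKM, and the 3 nearest patterns of each member with a mean of at least 10 RPKM. PLAU, AXL, MMP1, SRF and IRF8, and the marker genes named, fall outside that rule and were chosen after their values were seen. Alternatives were a pseudocount of 0.1, other minimum levels, quantile normalization and trend removal. Some genes that this rule names are not reported here.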

Additional observations from a re-analysis of the deposited data

How the results depend on the processing

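No paired analysis was possible because the result comes from no test and the C8161 libraries are held as 1 combined column per arm, which also prevents leaving out a replicate. Values moving by less than 0.1 on the log2 scale, and counts within 1.5 times, were taken as unchanged. Of the members' differences, only that of BATF2 in C8161 changed sign under any of these alternatives, to 0.043 from -0.028 with trends removed. Genes past 1.2-fold numbered 240 higher and 297 lower in C8161 and 240 higher and 179 lower in A2058. With a pseudocount of 0.1 RPKM they were 407 and 469 in C8161 and 459 and 389 in A2058, and 2 members (FOS, FOSB) passed in C8161. Without a minimum they were 399 and 319 in A2058. With a minimum of 5 RPKM they were 86 and 44 in A2058, where 0 members passed, since BATF was not compared. Quantile normalization put 2 members (BATF, FOS) past 1.2-fold in A2058. Trend removal left 92 lower genes and 3 members past it in C8161 (FOSB, FOSL1, JUND). The member median between lines moved to 0.488 (ATF3 cells) and 0.564 (controls) with a pseudocount of 0.1. After quantile normalization it was 0.774 over 10 members (ATF3 cells) and 1.035 over 9 members without BATF (controls). Trend removal between lines, chosen after seeing the data, left 4 members past 2-fold among controls (FOS, FOSL1, FOSL2, JUN) and 7 among ATF3 cells. Over all genes it left 1157 higher and 2276 lower among controls, and 1164 higher and 2272 lower among ATF3 cells. The causes were not tested. Depth limits BATF and FOSB in A2058 and is unknown in C8161.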
